A study of Mus musculus with 24 samples.

Results

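The comparison described here is 5 h of lipopolysaccharide (LPS) against 0 h in the Nur77 line of RAW 264.7 cells, a mouse macrophage line. It rests on 8 of the 24 libraries of the series, 4 labelled Nur77 at 5 h and 4 labelled Nur77 at 0 h, chosen by their column names. Where a gene had several transcripts, the one with the highest mean count stood for it. The Nur77 line is a stable derivative with a doxycycline-inducible construct for Nur77, the orphan nuclear receptor encoded by Nr4a1, and the GFP line, used here for comparison, carries an inducible construct for green fluorescent protein. All groups used here, the 0 h controls included, were given 50 ng/ml doxycycline for 18 h to switch the construct on. The 5 h groups then received 500 ng/ml LPS for 5 h, and the 0 h groups received none. Each construct was present in 1 stable line, so construct and line cannot be told apart in a difference between the lines. The labels do not say whether replicates were separate cultures, so the p-values measure the spread between these libraries, which may be technical.

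LPS is an outer-membrane component of Gram-negative bacteria. Macrophages bind it through CD14, MD-2 and Toll-like receptor 4 (TLR4), which signals through the adaptor MyD88 to the transcription factors NF-kB and AP-1, and through the adaptor TRIF to IRF3 and type I interferon. The first waves of transcription produce cytokines, chemokines and the inhibitors that later switch signalling off. Secreted interferon then acts through STAT proteins and IRF9 on genes with an interferon-stimulated response element (ISRE) and starts the antiviral programme. Nur77 and its relatives Nr4a2 and Nr4a3 are themselves immediate early genes of stimulated macrophages.

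The sequences below are 5 promoter stretches, each the 250 bases before the RefSeq start site of the gene on its own strand (GRCm38.p6, written 5' to 3'). They are shown because these genes stand for the main branches of the response described below. Capitals mark matches to the searched motifs, read on both strands. For Cxcl10, Il1b, Acod1 and Ifit1 these were NF-kB GGGANNTTC, ISRE TTCNNTTTC, AP-1 TGANTCA and the TATA box TATAAA. For Cdc6 the search was for E2F TTTNNCGC alone. A capital stretch is a match to letters and not a shown binding site. Cdc6 was chosen after its values and its E2F match were seen. The same stretch of Ung, the G1/S gene with the largest fall, held no E2F match, the only motif searched there, and is not printed.
Cxcl10 (chr5:92348890-92349139, minus strand): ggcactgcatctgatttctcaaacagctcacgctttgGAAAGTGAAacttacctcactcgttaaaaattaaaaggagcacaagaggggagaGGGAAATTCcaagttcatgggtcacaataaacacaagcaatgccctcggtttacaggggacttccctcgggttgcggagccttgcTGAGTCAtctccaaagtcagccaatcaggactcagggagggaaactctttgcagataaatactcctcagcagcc
Il1b (chr2:129371140-129371389, minus strand): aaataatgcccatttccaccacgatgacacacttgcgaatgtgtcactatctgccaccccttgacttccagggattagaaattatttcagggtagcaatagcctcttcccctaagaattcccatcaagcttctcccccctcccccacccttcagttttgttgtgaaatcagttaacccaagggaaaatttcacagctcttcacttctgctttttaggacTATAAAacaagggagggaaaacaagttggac
Acod1 (chr14:103046762-103047011, plus strand): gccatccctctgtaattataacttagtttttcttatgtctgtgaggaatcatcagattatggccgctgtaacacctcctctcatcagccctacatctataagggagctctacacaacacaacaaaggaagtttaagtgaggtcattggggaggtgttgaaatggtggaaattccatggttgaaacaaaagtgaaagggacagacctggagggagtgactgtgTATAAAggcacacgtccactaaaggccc
Ifit1 (chr19:34640639-34640888, plus strand): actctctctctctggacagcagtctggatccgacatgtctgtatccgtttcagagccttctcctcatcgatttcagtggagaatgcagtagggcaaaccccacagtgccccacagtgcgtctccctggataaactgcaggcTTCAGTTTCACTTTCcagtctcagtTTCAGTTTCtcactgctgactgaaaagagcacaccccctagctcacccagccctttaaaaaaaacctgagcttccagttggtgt
Cdc6 (chr11:98907901-98908150, plus strand): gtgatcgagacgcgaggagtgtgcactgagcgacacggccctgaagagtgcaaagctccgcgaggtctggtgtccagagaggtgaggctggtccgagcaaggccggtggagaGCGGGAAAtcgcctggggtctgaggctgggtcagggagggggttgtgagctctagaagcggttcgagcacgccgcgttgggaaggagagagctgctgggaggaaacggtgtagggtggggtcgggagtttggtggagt
The Cxcl10 stretch held an ISRE match 213 bases, an NF-kB match 159 bases and an AP-1 match 74 bases before the start. In Ifit1, 3 ISRE matches began 109, 103 and 84 bases before the start, the first 2 overlapping. Il1b and Acod1 each held 1 TATA box, beginning 31 and 28 bases before the start. Cdc6 held 1 E2F match, beginning 138 bases before the start. For Il1b and Cdc6 the start used by the promoter table lies inside the RefSeq span of the gene, whose coordinates are given below.

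The 8 libraries held between 11137343.5 and 29275847 estimated counts over genes. All 12 macrophage markers examined were present in every library, and the lowest value was 18.1 CPM (counts scaled to 1e+06 per library and adjusted by TMM factors) for Fcgr1, which encodes an IgG receptor. Of the defining markers of other cell types, Col3a1, Dcn, Lum, Cd3e, Epcam and Krt8 were at 0 in all 8 libraries. Pdgfrb, a fibroblast marker, was listed at a mean of 0.152 CPM at 0 h and 2.19 CPM at 5 h, while Col1a1 reached at most 0.403 CPM. The summed level of the 10 fibroblast markers was 0.195 to 0.806 CPM at 0 h and 2.28 to 2.97 CPM at 5 h. The 14 lymphocyte markers summed to at most 0.241 CPM and the 9 epithelial markers to at most 0.0752 CPM. The 12 neutrophil markers summed to 9.49 to 10.7 CPM at 0 h and 9.93 to 13.3 CPM at 5 h, with Ly6g at 0 in all 8 libraries. In all 8 libraries 4 of the 10 fibroblast, 10 of the 14 lymphocyte, 8 of the 9 epithelial and 3 of the 12 neutrophil markers were at 0, and the part of these RNAs in the results was not tested. In bulk RNA a smaller share of cells expressing a gene and less RNA per cell cannot be told apart. A library outside this comparison, Nur77 line 1 h replicate 2, stood apart from its group in a principal component analysis (11.7 against -11.4 to -10.2 on the first component). The 1 h libraries were therefore kept out of the main fit, and their levels are given only to show the course. They did enter the choice of transcript, the filter on low counts and the TMM factors, which used all 24 libraries.

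Nr4a1 (NM_010444, chromosome 15, 101253902 to 101274795, GRCm38) stood at 2.74, 3.71, 3.27 and 3.37 CPM in replicates 1 to 4 of the Nur77 line at 0 h, and at 4.51, 5.12, 5.2 and 4.74 CPM at 5 h. The groups did not overlap, and the log2 fold change was 0.56 (SE 0.15, adjusted p = 0.00195, edgeR quasi-likelihood test). The call was lost with the 1 h libraries in the fit (adjusted p = 0.195) and with library size alone as the scaling (0.131). At 1 h the 4 libraries gave 42.4, 9.29, 40.0 and 39.8 CPM, each above every library at 0 h and 5 h, with replicate 2 the lowest. The GFP line was at 3.03 ± 0.39 CPM at 0 h (SD, n = 4), and the ranges of the 2 lines at 0 h overlapped. Which species' Nur77 sequence the construct carries is not stated in the labels, and Nr4a1 counts therefore do not check the label of the line. Nr4a2 was at 2.42, 2.75, 2.97 and 2.08 CPM at 0 h and 2.29, 1.73, 2.53 and 1.46 CPM at 5 h, with overlapping groups (log2 fold change -0.32, adjusted p = 0.161, edgeR). Nr4a3 was at 0.161, 0.413, 0.119 and 0.389 CPM at 0 h, 1.83, 1.35, 1.70 and 1.70 CPM at 1 h and 9.03, 6.63, 5.87 and 8.39 CPM at 5 h. Its groups at 0 h and 5 h did not overlap, and it rose by 4.77 on the log2 scale (SE 0.29, adjusted p = 1.55e-12, edgeR).

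At 5 h most of the measured transcriptome differed from 0 h. Of 12198 genes tested, 4252 rose (34.9%) and 4404 fell (36.1%) at an adjusted p under 0.05, 71% in all. Groups of 4 libraries did not overlap for 64.9% of genes. The changes were unequal in size. A log2 fold change of at least 1 was reached by 1019 risen (8.35%) and 1244 fallen genes (10.2%), one of at least 3 by 231 and 63, and one of at least 5 by 95 and 4. Genes that rose by at least 1 took up 5.72% ± 0.0291 of all counts at 0 h and 18.5% ± 0.0846 at 5 h (SD, n = 4). Genes that fell by at least 1 went from between 4.74% and 4.85% of counts to between 1.43% and 1.49%. The near balance of risen and fallen genes depended on the scaling. With library size alone the median of all genes moved from -0.03 to -0.34 on the log2 scale, 2250 genes rose and 7066 fell, and the share of risen genes among those called went from 49.1% to 24.2%. Small changes in the lists below are therefore read relative to the median of all genes. Counts of risen and fallen members are likewise read beside the shares of all genes, 34.9% and 36.1%. A gene that passed the filter on low counts only through its 5 h libraries had to differ, so for the induced lists the listed number is given beside the tested one.

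**Figure D1:**
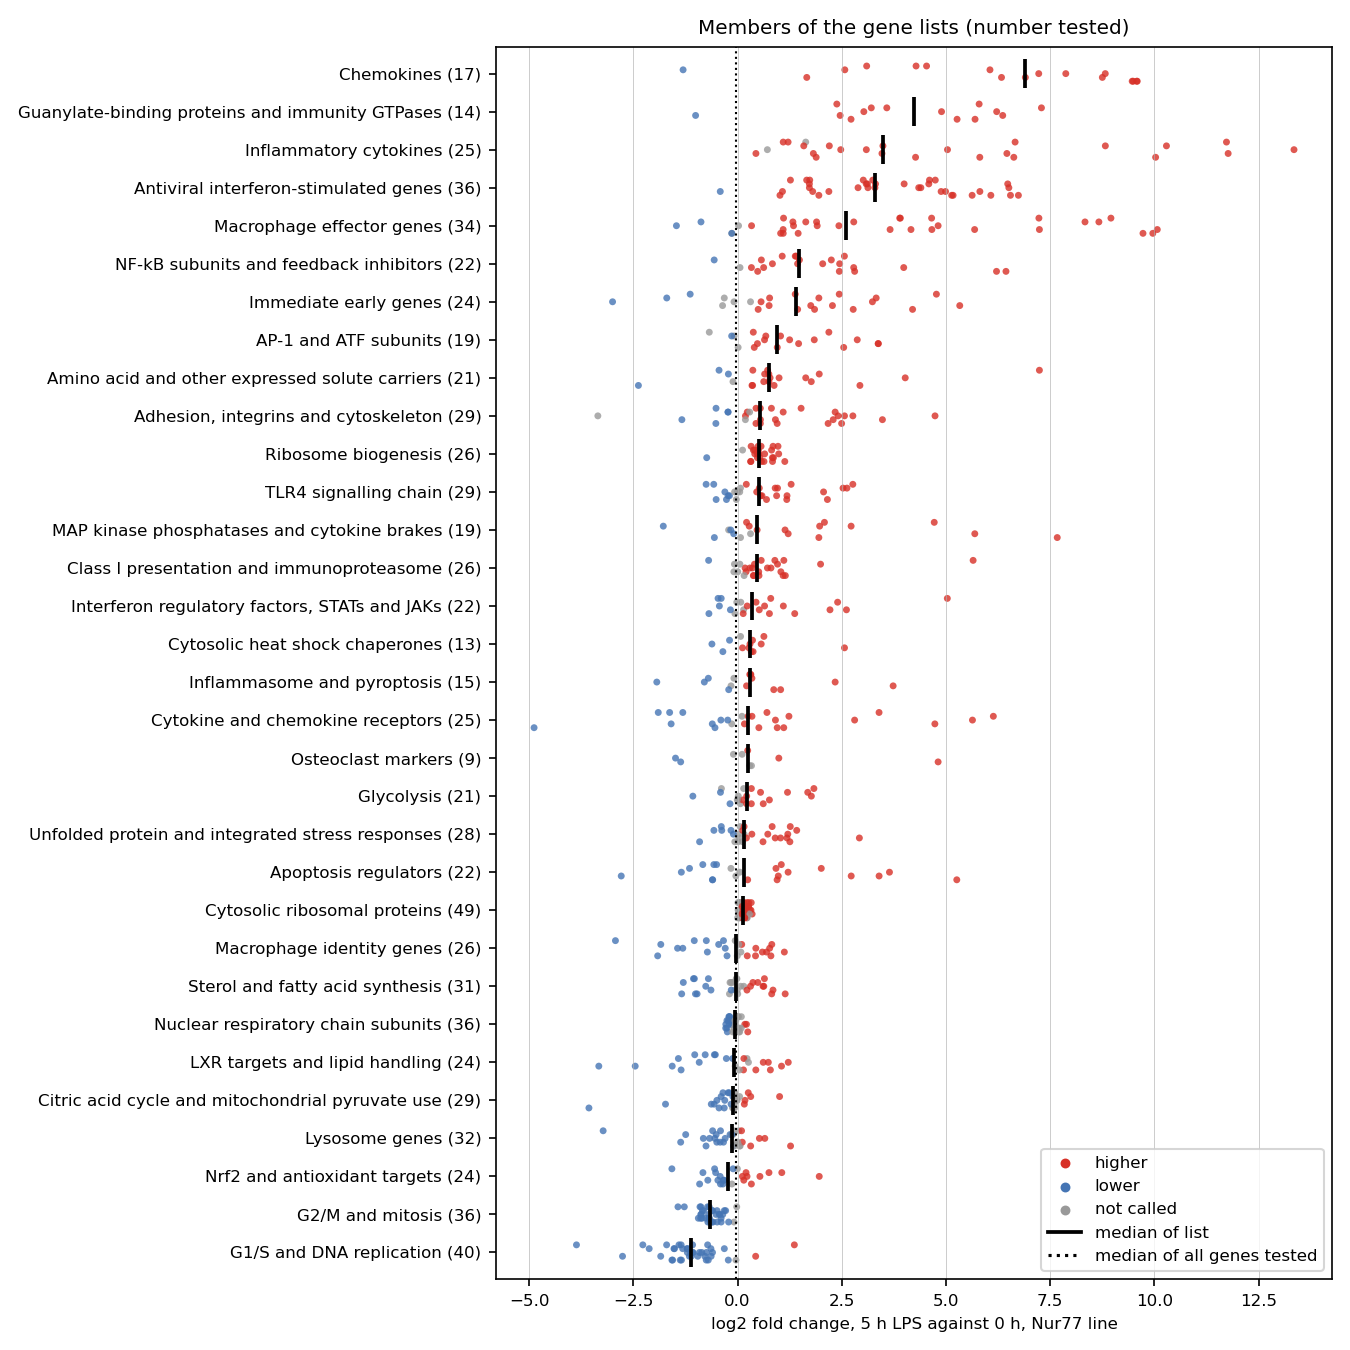
Log2 fold change of each tested member (points) of the gene lists at 5 h against 0 h in the Nur77 line, with list medians as bars, coloured by whether the gene rose, fell or did not pass the test, and the median of all 12198 genes as a dotted line. Chemokines, guanylate-binding proteins, cytokines and antiviral genes sit farthest to the right (medians of 6.91, 4.24, 3.49 and 3.30), and the G1/S list farthest to the left (-1.12).

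Of 30 genes of the TLR4 signalling chain, 29 were tested, 17 rose and 7 fell, with a median log2 fold change of 0.52 against -0.03 for all genes (with library size alone 16 rose and 12 fell). The receptor gene did not pass the test. Tlr4 was at 164, 168, 143 and 175 CPM at 0 h and 159.9, 148, 151 and 178 CPM at 5 h, with overlapping groups (log2 fold change -0.03, adjusted p = 0.687, edgeR). The largest rises were in kinases. Ikbke, encoding the IKK-related kinase IKK-epsilon that phosphorylates IRF3, went from 64.5, 88.4, 72.9 and 73.1 to 575, 512, 504 and 443 CPM. This was a log2 fold change of 2.77 (SE 0.13). Irak3, a kinase-like inhibitor of MyD88 signalling, rose by 2.63 from 30.3 ± 1.25 to 187 ± 6.12 CPM (SD, n = 4). Map3k8, the kinase TPL2 upstream of ERK, rose by 2.53 from 4.29 ± 0.678 to 24.7 ± 0.865 CPM. Against the direction of most members, Mapk14, which encodes the p38-alpha kinase, fell by 0.75 from 137 ± 2.76 to 81.5 ± 4.31 CPM. An activating kinase and an inhibitor of the pathway had thus both risen.

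All 22 listed NF-kB subunits and feedback inhibitors were tested, and 20 rose, 15 of them by at least 1. Their median was 1.46, against -0.03 for all genes. Nfkbiz (NM_030612, chromosome 16, 55811375 to 55838954), encoding the nuclear cofactor IkB-zeta, was at 6.12, 8.53, 8.56 and 8.04 CPM at 0 h and 689, 679.6, 673 and 697 CPM at 5 h. All 4 libraries at 5 h lay far above all 4 at 0 h, and the log2 fold change was 6.44 (SE 0.083, adjusted p = 1.26e-24, edgeR). Traf1, a TNF receptor-associated adaptor, went from 3.14, 3.44, 3.75 and 3.7 to 248, 274, 276 and 252 CPM, a rise of 6.21 (SE 0.077). Tnfaip3, the ubiquitin-editing brake A20, went from 24.2, 23.4, 23.2 and 20.4 to 346, 373, 369.9 and 357 CPM, a rise of 3.99 (SE 0.059). The 1 member that fell was Cyld, a deubiquitinase that restrains NF-kB, by 0.56 from 93.4 ± 3.14 to 63.3 ± 4.36 CPM. Otud7b, another deubiquitinase, had overlapping groups (92.2 ± 3.76 and 96.1 ± 4.26 CPM, log2 fold change 0.06, adjusted p = 0.332, edgeR). In the GFP line the same list had a median of 2.42. The difference of the responses, Nur77 line minus GFP line, was negative and called for 17 of the 22 genes and positive for none, where 9.96% of all genes tested had a negative and 7.19% a positive called difference. Of these 17, 16 had a higher mean level in the Nur77 line than in the GFP line at 0 h, and 3 had one at 5 h. Choosing genes by a negative difference favours a higher level at 0 h or a lower one at 5 h. Of all 1215 genes with a called negative difference, 727 had a higher mean level in the Nur77 line at 0 h and 186 at 5 h. Traf1 rose by 8.31 in the GFP line (difference -2.10, SE 0.16, adjusted p = 3.30e-09, edgeR) and Tnfaip3 by 5.43 (difference -1.44, SE 0.086, adjusted p = 7.03e-11, edgeR). In the GFP line Traf1 was at 0.875 ± 0.286 CPM at 0 h and 299 ± 7.21 CPM at 5 h (SD, n = 4), and Tnfaip3 at 7.79 ± 0.828 CPM at 0 h and 332 ± 5.82 CPM at 5 h. Both genes thus differed more between the lines at 0 h, where the Nur77 line was higher, than at 5 h. With the 1 h libraries in the fit, 13 of the 22 differences were called and negative and 0 positive.

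**Figure D2:**
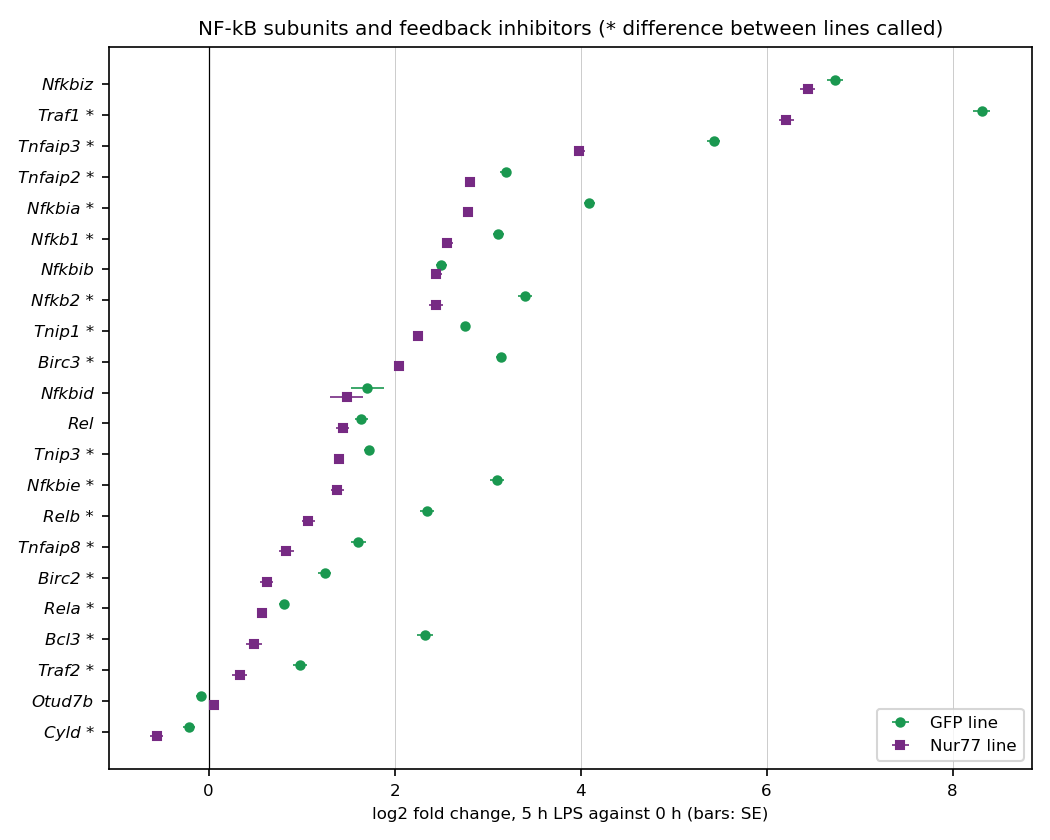
Log2 fold change at 5 h against 0 h of the 22 NF-kB subunits and feedback inhibitors in the Nur77 line and in the GFP line, with bars of 1 SE and a star where the difference between the lines was called. The Nur77 values lie below the GFP values for the 17 starred genes, among them Traf1 and Tnfaip3.

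Among AP-1 and ATF subunits, 20 were listed and 19 tested, and 15 rose and 1 fell (median 0.95; with library size alone 13 rose and 4 fell). The classical pair did not rise. Fos was at 4.43, 4.47, 4.4 and 4.93 CPM at 0 h, 16.9, 18.2, 16 and 16.5 CPM at 1 h and 3.99, 6.13, 3.42 and 3.74 CPM at 5 h. The 5 h values lay below those at 1 h and spanned the 0 h range (log2 fold change -0.08, SE 0.15, adjusted p = 0.632, edgeR). The GFP line was at 18.2 ± 1.01 CPM at 0 h and 4.15 ± 0.466 CPM at 5 h, a log2 fold change of -2.13. The difference was 2.05 (SE 0.20, adjusted p = 1.11e-07, edgeR), and the lines stood apart at 0 h and close together at 5 h. Jun was at 89.8, 82.9, 80.8 and 83.9 CPM at 0 h and 80.2, 76.5, 76.2 and 72.4 CPM at 5 h, a log2 fold change of -0.14 (adjusted p = 0.0215, edgeR). That call was lost without Nur77 line 0 h replicate 1 (adjusted p = 0.0842), without Nur77 line 5 h replicate 4 (0.0693) and with all 24 libraries in the fit (0.371). The members that rose most were partners of the family with low levels at 0 h. Batf went from 0.0982 ± 0.0539 to 1.12 ± 0.297 CPM (log2 fold change 3.38), Maff, a small Maf factor, from 3.62 ± 0.561 to 37.3 ± 2.61 CPM (3.37), and Batf2 from 0.802 ± 0.118 to 6.03 ± 1.03 CPM (2.87).

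The immediate early list, whose members usually peak within the first hour of a stimulus, was tested in all 24 members, and 17 stood above 0 h at 5 h while 3 stood below (median 1.41; with library size alone 16 and 6). Whether members had peaked before 5 h was not tested, and Nr4a3 was higher at 5 h than at 1 h. Myc, the growth-promoting transcription factor, went from 0.725, 1.24, 1.37 and 1.36 to 48.4, 49.1, 50.5 and 45.8 CPM, a log2 fold change of 5.33 (SE 0.11). Ier3, an early stress-response gene, went from 15.2, 16.1, 15.5 and 14.9 to 302, 283, 283 and 265 CPM (4.20, SE 0.063). Klf10, a TGF-beta-responsive zinc finger factor, ran the other way, from 24.5, 29.7, 27.8 and 25.3 to 3.16, 3.75, 3.34 and 3.28 CPM, and fell by 3.00 (SE 0.10). Zfp36l1, an mRNA-decay factor, was at 29.6 ± 1.98 and 27.9 ± 1.79 CPM with overlapping groups. The list's median in the GFP line was 0.80. Of all genes, 7.19% had a positive and 9.96% a negative called difference of the responses. In this list 9 differences were positive and 4 negative (5 positive and 3 negative with the 1 h libraries in the fit). Nr4a1 (difference 0.64, adjusted p = 0.0423, edgeR) was one of the positive ones. Its call was lost in 11 of the 16 fits that left out 1 library (adjusted p = 0.052 to 0.0825). It was also lost with DESeq2 (adjusted p = 0.0534), without a filter on low counts (0.0639), with library size alone (0.0615) and with all 24 libraries in the fit (0.544).

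Of 20 MAP kinase phosphatases and cytokine brakes, 19 were tested, 12 rose and 4 fell (median 0.47; with library size alone 9 rose and 6 fell). Cish, a STAT5-induced suppressor of cytokine signalling, went from 0.161, 0.206, 0.119 and 0.0649 to 28, 28.5, 31.7 and 28 CPM (7.67, SE 0.17). Dusp8, a phosphatase of JNK and p38, went from 0.161, 0.55, 0 and 0.0649 to 10.3, 10.7, 10.2 and 8.48 CPM (5.69, SE 0.30). Socs3, the brake on gp130 and STAT3 signalling, went from 8.54, 9.63, 8.56 and 8.56 to 233, 234, 244 and 219 CPM (4.72, SE 0.060). None of these 3 pairs of groups overlapped, a trait of 64.9% of all genes tested. Dusp14, also a MAP kinase phosphatase, fell by 1.78 from 3.28 ± 0.273 to 0.958 ± 0.324 CPM. Socs4 was at 29.3 ± 2.23 and 30.9 ± 0.894 CPM with overlapping groups (adjusted p = 0.467, edgeR).

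Inflammatory cytokines showed some of the largest changes of the comparison. Of 29 listed genes, 25 were tested and 23 rose, 22 of them by at least 1, with none falling (median 3.49). Csf3 (NM_009971, chromosome 11, 98700183 to 98703631), encoding the neutrophil growth factor G-CSF, was at 0.0806, 0.0688, 0.178 and 0 CPM at 0 h and 901, 1002, 989 and 955 CPM at 5 h. Its log2 fold change of 13.36 (SE 0.29, adjusted p = 1.23e-14, edgeR) was the largest rise in the Nur77 line among genes that reached 10 CPM. Il1b (NM_008361, chromosome 2, 129364569 to 129371164), whose promoter stretch with its TATA box is shown above, was at 0, 0.0688, 0 and 0.454 CPM at 0 h, 22.3, 13.1, 24.5 and 29.4 CPM at 1 h and 464, 494, 504 and 469 CPM at 5 h. It was barely detected before LPS, with replicate 4 the highest of the 0 h libraries, and rose by 11.73 (SE 0.20, adjusted p = 4.54e-18, edgeR). Csf2, encoding the macrophage growth factor GM-CSF, went from 0.0806, 0.481, 0.119 and 0.195 to 924, 761, 781 and 696 CPM (11.77, SE 0.21). Il1a, encoding the alarmin interleukin-1-alpha, went from 0.484, 0.55, 0.595 and 0.908 to 815, 799, 818 and 825 CPM (10.29, SE 0.15). Lif, an interleukin-6 family cytokine, went from 0.161, 0.206, 0.357 and 0.13 to 231, 238, 252 and 225 CPM (10.03, SE 0.12). For these genes the 0 h libraries held less than 1 CPM on average, so the size of the fold rests on few reads at 0 h.

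Tnf (NM_013693, chromosome 17, 35199367 to 35202007), the early-response cytokine, was already present at 0 h (46.7, 57.1, 53.2 and 47.8 CPM) and stood at 4096, 6359, 3234 and 3369 CPM at 1 h and 5060.0, 5200.1, 5231 and 4778 CPM at 5 h. The groups at 0 h and 5 h did not overlap, and it rose by 6.63 (SE 0.099, adjusted p = 1.06e-18, edgeR). Tnf in the GFP line was at 21.9 ± 3.88 CPM at 0 h and 4139 ± 61.1 CPM at 5 h (SD, n = 4) and rose by 7.57. The difference of -0.94 was called (SE 0.12, adjusted p = 3.39e-05, edgeR), while the level was higher in the Nur77 line at both times. Il6 held 2 counts in the 4 libraries at 0 h and 1231 at 5 h (20.7, 16.7, 18.8 and 17.9 CPM). The ratio of the group levels was 561, with a counting interval from 155 to 4640 (95%, which covers counting error only). Il12b, encoding the p40 subunit of interleukin-12, had no count at 0 h and 15, 17, 6 and 9 counts at 5 h, at least 15.1-fold higher than the floor of 3 counts over the group. Il10, the anti-inflammatory cytokine, had 1 count in the 4 libraries at 0 h and none at 5 h, and Ifnb1, encoding interferon-beta, had none at 0 h and 9, 3, 7 and 1 at 5 h. Both were below the filter and were not tested. A count of 0 over the 5 h libraries allows up to 0.0462 CPM of Il10, so a low level was not detectable at this depth.

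**Figure D3:**
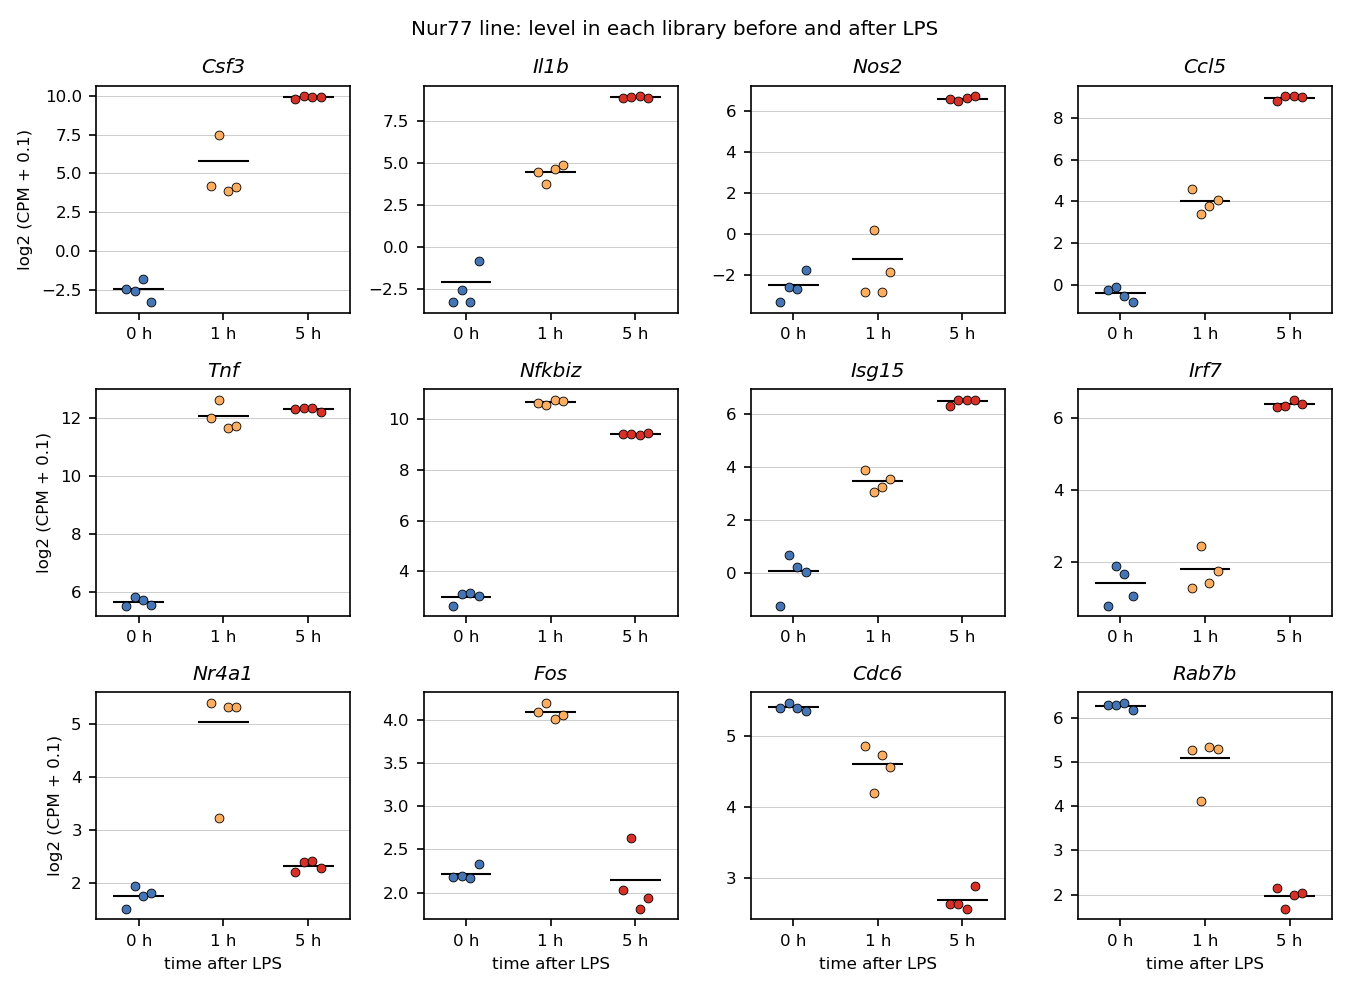
Levels of 12 genes as log2(CPM + 0.1) in each Nur77 line library at 0, 1 and 5 h of LPS (points), with a bar at the group mean. Csf3, Il1b, Nos2 and Ccl5 are highest at 5 h, and Cdc6 and Rab7b are lowest at 5 h. Nr4a1 and Fos are high at 1 h and back near the 0 h level at 5 h. At 1 h, replicate 2 stands apart for some genes, such as Nr4a1 and Rab7b, and not for others, such as Fos and Isg15.

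Chemokines rose together. Of 19 listed, 17 were tested, 16 rose, all of them by at least 1, and 1 fell, with a median of 6.91, or 6.33 with genes at 0 counts set to their lower bound. The list's summed level went from 1050.3 to 22547 CPM. Ccl5 (NM_013653, chromosome 11, 83525778 to 83530518), which attracts T cells and monocytes, was at 0.725, 0.825, 0.595 and 0.454 CPM at 0 h and 446, 526, 524 and 507 CPM at 5 h (9.59, SE 0.11, adjusted p = 2.99e-25, edgeR). Cxcl10 (NM_021274, chromosome 5, 92346638 to 92348889), the CXCR3 ligand whose promoter stretch holds the ISRE, NF-kB and AP-1 matches above, was at 4.43, 3.16, 3.33 and 4.99 CPM and then 505, 462, 460.2 and 474 CPM. It rose by 6.91 (SE 0.088, adjusted p = 1.01e-24, edgeR). In the GFP line it was at 0.337 ± 0.115 CPM at 0 h and 156 ± 5.75 CPM at 5 h. The Nur77 line was thus higher at both times, and its fold was smaller (8.74 in the GFP line, difference -1.83, SE 0.24, adjusted p = 7.82e-06, edgeR). That difference did not pass with the 1 h libraries in the fit (adjusted p = 0.0837). Ccl2, the main monocyte attractant, went from 8.54, 9.21, 9.87 and 7.46 to 729.9, 685, 711 and 712 CPM (6.33, SE 0.096). Ccl22, a ligand of CCR4, went from 2.26, 1.99, 2.68 and 2.72 to 375, 367, 368 and 349 CPM (7.23) and rose by 10.31 in the GFP line, from 0.178 ± 0.129 to 255 ± 15.9 CPM (difference -3.09, SE 0.28, adjusted p = 4.77e-08, edgeR). Cxcl1, a neutrophil attractant, and Ccl17, the other CCR4 ligand, had no count at 0 h and stood at 5.52 ± 1.11 and 5.29 ± 0.653 CPM at 5 h, at least 109-fold and at least 104-fold higher than the floor. Cxcl14, a chemokine known from resting tissue, was the 1 member that fell, by 1.31 from 36.1, 36, 34.2 and 34 to 14, 15.6, 15.3 and 11.6 CPM.

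Receptors for these signals moved in both directions. Of 31 cytokine and chemokine receptors 25 were tested, and 14 rose and 9 fell (median 0.25; with library size alone 11 rose and 10 fell, median -0.06). Of all genes 34.9% rose and 36.1% fell, so the fallen share of this list was near that background. Cd40, the co-stimulatory receptor, went from 2.42, 2.89, 3.57 and 2.21 to 192, 201, 205 and 193 CPM (6.14, SE 0.085), and Ccrl2, an atypical receptor that presents chemerin, from 2.74, 3.71, 3.93 and 2.85 to 148, 176, 169 and 173 CPM (5.64, SE 0.085). Cxcr4, the receptor for CXCL12, moved against them and fell by 4.88, from 8.22, 6.6, 5.95 and 5.64 to 0.263, 0.216, 0.149 and 0.182 CPM (SE 0.24). Csf3r, the receptor for G-CSF, was at 8.14, 8.32, 8.68 and 9.4 CPM at 0 h and 8.65, 11.5, 9.21 and 8.02 CPM at 5 h. Its groups overlapped (log2 fold change 0.11, adjusted p = 0.425, edgeR), so its ligand's message rose without a detected change in the receptor's.

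Macrophage effector genes, which make nitric oxide, itaconate, prostaglandins and secreted proteins, numbered 39, of which 34 were tested. Of these 29 rose, 28 by at least 1, and 3 fell (median 2.61). Nos2 (NM_010927, chromosome 11, 78920787 to 78960226), the inducible nitric oxide synthase, was at 0, 0.0688, 0.0595 and 0.195 CPM at 0 h and 96, 91.1, 102 and 107 CPM at 5 h (10.07, SE 0.18, adjusted p = 1.70e-21, edgeR). In the GFP line Nos2 rose by 8.44, from 1.13 ± 0.342 CPM at 0 h to 396 ± 30.8 CPM at 5 h. The Nur77 line was thus lower at both times, while its fold was larger (difference 1.63, SE 0.53, adjusted p = 0.0376, edgeR). That fold rests on 5 counts over the Nur77 line libraries at 0 h. The call of the difference was lost in 6 of the 16 fits that left out 1 library. Acod1 (NM_008392, chromosome 14, 103047012 to 103056573), the mitochondrial enzyme that makes itaconate and whose TATA box is shown above, was at 2.42, 3.44, 3.45 and 4.67 CPM and then 3512, 3604, 3616 and 3423 CPM. It rose by 9.96 (SE 0.25, adjusted p = 2.06e-13, edgeR) and had reached 527, 452, 482 and 501 CPM at 1 h. Ptgs2, the inducible cyclooxygenase COX-2, went from 2.98, 2.89, 3.09 and 3.5 to 1344, 1139, 1210.3 and 1405 CPM (8.67, SE 0.11), with a larger rise in the GFP line (10.09, from 1.56 ± 0.605 to 1727 ± 32.7 CPM, difference -1.42, adjusted p = 6.00e-05, edgeR, and 0.141 with the 1 h libraries in the fit). Its constitutive relative Ptgs1 (COX-1) went the other way and fell by 1.47, from 75.3, 76.2, 83.4 and 79.9 to 26.7, 28, 31.2 and 28.4 CPM (SE 0.061). Serpinb2, a plasminogen activator inhibitor, held 1 count at 0 h and 1340 at 5 h, a ratio of 1222 with a counting interval from 219 to 48305. Pla2g4a, which releases arachidonic acid for both cyclooxygenases, was at 291 ± 10.3 and 296 ± 9.5 CPM with overlapping groups (log2 fold change 0.02, adjusted p = 0.591, edgeR), whereas it rose by 0.72 in the GFP line, from 207 ± 8.41 to 340.4 ± 2.3 CPM (difference -0.69, SE 0.056, adjusted p = 9.27e-09, edgeR).

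Among interferon regulatory factors, STATs and JAKs, 24 were listed and 22 tested, of which 13 rose and 5 fell (median 0.34; with library size alone 10 rose and 10 fell). The amplifier of the interferon response, Irf7, went from 1.61, 3.58, 3.03 and 1.95 to 80.5, 81, 92.2 and 85.3 CPM (5.03, SE 0.12). Irf9, the DNA-binding partner of STAT2, went from 12.7, 14.9, 15.3 and 13.7 to 85, 85.8, 89.3 and 87.3 CPM (2.61, SE 0.063). Jak2, a cytokine receptor kinase, rose by 2.40 from 66.2 ± 4.76 to 349 ± 10.8 CPM. Irf2, a repressor of interferon genes, fell by 0.69 from 79.4 ± 2.66 to 49.2 ± 1.99 CPM. Ifnar1, a chain of the type I interferon receptor, did not pass the test (130.4 ± 3.71 and 125 ± 5.58 CPM, log2 fold change -0.06, adjusted p = 0.252, edgeR). It rose by 0.59 in the GFP line, from 111 ± 7.45 to 166 ± 5.22 CPM (difference -0.65, SE 0.069, adjusted p = 4.88e-07, edgeR).

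All 36 antiviral interferon-stimulated genes were tested, and 35 rose, each by at least 1 (median 3.30). Mx2, a dynamin-like antiviral GTPase, went from 0.242, 0.138, 0.238 and 0.195 to 25.4, 22.6, 19.6 and 21.5 CPM (6.74, SE 0.21). Isg15, the ubiquitin-like modifier, went from 0.322, 1.51, 1.07 and 0.908 through 14.7, 8.15, 9.33 and 11.7 CPM at 1 h to 80.2, 94.4, 92.4 and 93.1 CPM (6.51, SE 0.14). Rtp4, a receptor transporter with antiviral activity, went from 0.645, 0.756, 0.952 and 0.519 to 71.6, 66.4, 65.8 and 70.5 CPM (6.55, SE 0.12). For Ifit1, the cap-binding sensor whose promoter carries the 3 ISRE matches, the level went from 0.769 ± 0.311 to 68.8 ± 4.58 CPM (6.48, SE 0.14). The exception was Samhd1, a nucleotide-depleting restriction factor, which fell by 0.41 from 136, 125, 133 and 136 to 97.8, 98.1, 106 and 96 CPM. Usp18, the protease that removes ISG15 and blocks interferon receptor signalling, went from 3.38, 4.4, 4.34 and 3.63 to 81.2, 97.7, 109.6 and 95 CPM (4.59, SE 0.12). Its rise in the GFP line was 2.56, from 9.61 ± 0.969 to 56.8 ± 5.48 CPM, and the difference of 2.03 (SE 0.16, adjusted p = 1.07e-08, edgeR) was positive. Over the list 10 differences were positive and 7 negative (7 positive and 6 negative with the 1 h libraries in the fit). The shares over all genes were 7.19% positive and 9.96% negative. Ifit3 and Ifit3b are near-identical copies, so their separate values are uncertain.

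Of 15 guanylate-binding proteins and immunity GTPases, which attack vacuoles with microbes, 14 were tested and 13 rose by at least 1 (median 4.24). Gbp5 went from 0.322, 0.0688, 0.178 and 1.17 to 68.6, 64.3, 68.8 and 78.6 CPM (7.29, SE 0.22), Gbp3 from 0.484, 0.344, 0.654 and 0.649 to 47.4, 42.1, 45.7 and 44.7 CPM (6.36, SE 0.12) and Gbp2 from 0.242, 0.413, 0.595 and 0.584 to 18.6, 19.2, 16.9 and 19.1 CPM (5.27, SE 0.16). Gbp4 held 1 count at 0 h and 119 at 5 h, a ratio of 108.5 with a counting interval from 19.1 to 4322. Gbp8 was the member that fell, by 1.01 from 5.16, 7.01, 5.83 and 6.36 to 3.87, 2.74, 1.63 and 3.46 CPM. Gbp2 rose by 7.85 in the GFP line, from 0.358 ± 0.137 to 84.6 ± 5.98 CPM, more than in the Nur77 line (difference -2.58, SE 0.37, adjusted p = 3.45e-05, edgeR).

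Class I presentation, co-stimulation and immunoproteasome genes numbered 27, of which 26 were tested, 20 rose and 1 fell (median 0.46; with library size alone 13 rose and 7 fell, median 0.14). The leading members encode ligands for stimulatory or inhibitory receptors on T cells. Icosl, the ligand of ICOS on T cells, went from 2.18, 1.79, 1.01 and 1.43 to 75.8, 80.9, 79.5 and 78.9 CPM (5.65, SE 0.10). Cd274, the inhibitory ligand PD-L1, went from 13.4, 14, 14.2 and 15.2 to 56.1, 54.3, 58.4 and 57.9 CPM (1.99, SE 0.068), and Cd86 rose by 1.15 from 1.37 ± 0.546 to 3.06 ± 0.653 CPM. The fallen member was Psmb9, an immunoproteasome subunit, by 0.69 from 14, 14.2, 17 and 13.7 to 8.95, 9.22, 9.51 and 8.93 CPM. Pdia3, a chaperone of the peptide-loading complex, did not pass the test (1156 ± 31.3 and 1087 ± 39.1 CPM, adjusted p = 0.0807, edgeR). The difference from the GFP line was negative and called for 12 of the 26 and positive for 2 (none positive and 8 negative with the 1 h libraries in the fit). The shares over all genes were 9.96% negative and 7.19% positive. Genes of the H2-Q group are near-identical to each other, and counts may be split between them.

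The inflammasome list, whose members process interleukin-1-beta and open pores in the membrane, had 17 members, of which 15 were tested, 9 rose and 4 fell (median 0.29; with library size alone 4 rose and 6 fell, median -0.02). Nlrp3, the sensor whose low level limits inflammasome assembly in resting macrophages, went from 82.1, 77.9, 77.9 and 74.8 to 943, 1078, 1087 and 1049 CPM (3.73, SE 0.063). Casp4, the cytosolic LPS sensor also called caspase-11, went from 13.4, 13.5, 14.6 and 14.1 to 76.9, 71.1, 67.1 and 67.1 CPM (2.34, SE 0.068). P2rx7, the ATP-gated channel that triggers NLRP3, fell by 1.94 from 38.8, 34.4, 37.2 and 36.7 to 9.25, 10.1, 9.36 and 9.84 CPM (SE 0.089). Ripk1, the death-domain kinase, was at 106 ± 4.39 and 99.3 ± 1.23 CPM (log2 fold change -0.09, adjusted p = 0.101, edgeR).

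Some macrophage identity genes rose and others fell, in numbers not far from the share of all genes (34.9% risen and 36.1% fallen). Of 28 listed, 26 were tested, 10 rose and 12 fell, 6 of the fallen by at least 1 (median -0.03; with library size alone 6 rose and 16 fell). Cebpa, a myeloid lineage factor, fell by 1.92 from 14.3 ± 0.786 to 3.84 ± 0.476 CPM, and Fcgr3, a low-affinity IgG receptor, by 1.84 from 73.9 ± 3.64 to 20.7 ± 2.91 CPM. Cebpb, the inflammation-responsive relative of Cebpa, rose by 1.12 from 43.7, 44.6, 48.1 and 48 to 102, 98, 102 and 99.9 CPM. The group levels of the 2 C/EBP factors thus changed in opposite directions. Ctsb, a lysosomal protease, overlapped between groups (2890.0 ± 84.3 and 2952 ± 162 CPM).

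In glycolysis, all 21 genes were tested, 12 rose and 3 fell (median 0.22; with library size alone 7 rose and 10 fell, median -0.10). The entry steps led. Slc2a1, the glucose transporter GLUT1, went from 119, 129, 131 and 119 to 429.6, 444, 468 and 436 CPM (1.83, SE 0.044), and Hk2, a hexokinase, from 114, 102, 112 and 103 to 342, 361, 384 and 388 CPM (1.77, SE 0.064). Hk2 rose more in the Nur77 line than in the GFP line (1.04, from 159 ± 13.8 to 327 ± 22.4 CPM, difference 0.73, SE 0.088, adjusted p = 3.43e-06, edgeR). Eno2, an enolase, rose by 1.68 from 21.4 ± 3.65 to 68.9 ± 5.76 CPM. Pfkm, a phosphofructokinase isoform, fell by 1.07 from 35 ± 1.01 to 16.7 ± 2.23 CPM, and Pkm, a pyruvate kinase, was at 3556 ± 86.7 and 3542 ± 91.2 CPM (adjusted p = 0.881, edgeR).

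Of 30 genes of the citric acid cycle and mitochondrial pyruvate use, 29 were tested, 5 rose and 14 fell, with a small median of -0.11 (with library size alone 1 and 26). Pdk2, a kinase that switches off pyruvate dehydrogenase, went from 6.77, 4.88, 7.61 and 6.36 to 0.677, 0.288, 0.446 and 0.638 CPM and fell by 3.56 (SE 0.21). Idh1, the cytosolic isocitrate dehydrogenase, went from 119, 112, 118 and 119 to 31.3, 38, 38.2 and 34.8 CPM and fell by 1.73 (SE 0.056). Dld, the shared E3 subunit of the dehydrogenase complexes, rose by 1.01 from 278, 283, 262 and 282 to 600.0, 527, 535 and 559 CPM. Citrate synthase, Cs, did not pass the test (414 ± 8.78 and 392 ± 11.3 CPM, adjusted p = 0.067, edgeR). Of 36 nuclear respiratory chain subunits, 3 rose and 15 fell, with none reaching a change of 1 (median -0.06; with library size alone none rose and 34 fell, median -0.37).

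Sterol and fatty acid synthesis genes rose and fell about as often as all genes did (34.9% and 36.1%), so the counts of the list are those of the background. Of 32 listed, 31 were tested, and 10 rose and 10 fell (median -0.03; with library size alone 7 and 20). Scd2, a stearoyl-CoA desaturase, went from 1799, 1665, 1697 and 1686 to 639.6, 702, 687 and 676 CPM and fell by 1.34 (SE 0.041). Acly, which supplies cytosolic acetyl-CoA, was at 256 ± 13.4 and 245 ± 17.9 CPM (adjusted p = 0.338, edgeR). Of 25 LXR targets and lipid handling genes 24 were tested, 8 rose and 12 fell (median -0.09; with library size alone 6 rose and 16 fell). Cpt1a, the gate of mitochondrial fatty acid oxidation, went from 64.5, 59.8, 65.4 and 62.7 to 5.91, 6.77, 5.94 and 6.74 CPM and fell by 3.33 (SE 0.093). Abcg1, a cholesterol exporter and LXR target, went from 131, 119, 122 and 119.8 to 22.2, 23.3, 20.9 and 23.3 CPM and fell by 2.45 (SE 0.056). Rxra, the partner receptor of LXR and of Nur77, fell by 1.57 from 47.9, 50.5, 45.6 and 42.4 to 15.3, 17.7, 16.7 and 12.9 CPM. Fabp4, a fatty acid chaperone, rose by 1.22 from 4.47 ± 0.563 to 10.4 ± 0.608 CPM, and Npc2, a lysosomal cholesterol carrier, overlapped (236 ± 4.46 and 243 ± 13.6 CPM).

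In the unfolded protein and integrated stress responses, 28 genes were tested, 15 rose and 6 fell (median 0.16; with library size alone 11 and 15, median -0.16). Members downstream of ATF4 led. Ppp1r15a (GADD34), which restores translation after eIF2-alpha phosphorylation, went from 27.9, 28.7, 27.4 and 25.4 to 214, 207, 214 and 194 CPM (2.92, SE 0.069). Chac1, a glutathione-degrading enzyme, rose by 1.42 from 20.4 ± 2.69 to 54.7 ± 1.88 CPM, and Sesn2, a leucine sensor, by 1.26 from 43.5 ± 3.26 to 105 ± 7.93 CPM. Eif2ak3, encoding the stress sensor PERK, fell by 0.91 from 42.7 ± 1.79 to 22.7 ± 0.69 CPM. The sensor Atf6 (343 ± 19.8 and 347 ± 11.4 CPM) and the chaperone Hyou1 (446 ± 13.8 and 486 ± 35.4 CPM) did not pass the test. Differences from the GFP line were positive for 13 of the 28 genes and negative for 2 (6 positive and none negative with the 1 h libraries in the fit). The shares over all genes were 7.19% positive and 9.96% negative. Among cytosolic heat shock chaperones 15 were listed and 13 tested, 9 rose and 3 fell (with library size alone 3 and 5). Of 25 Nrf2 and antioxidant targets 24 were tested, 9 rose and 13 fell (median -0.23; with library size alone 4 rose and 18 fell, median -0.54).

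Apoptosis regulators numbered 23, of which 22 were tested, 11 rose and 8 fell (with library size alone 10 and 11). The fallen share was near that of all genes, of which 34.9% rose and 36.1% fell. The survival genes of the A1 family led. Bcl2a1d went from 51.2, 55.1, 53.1 and 51.4 to 667, 673, 658 and 639 CPM (3.65, SE 0.050), and Bcl2a1b rose by 3.40 and Bcl2a1a by 5.26. These copies are near-identical, so how counts divide between them is uncertain. Bmf, a pro-death BH3-only gene, went from 5.16, 3.58, 5.23 and 4.41 to 0.451, 0.577, 0.965 and 0.82 CPM and fell by 2.79 (SE 0.24), less than in the GFP line (-4.60, from 3.29 ± 0.67 to 0.131 ± 0.0672 CPM, difference 1.81, SE 0.49, adjusted p = 0.0137, edgeR). Bak1, a pore former of the mitochondrial outer membrane, was at 168 ± 8.06 and 163 ± 10.4 CPM (adjusted p = 0.454, edgeR).

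Genes of DNA replication fell. All 40 G1/S genes were tested, 37 fell, 24 of them by at least 1, and 2 rose (median -1.12). Ung (NM_001040691, chromosome 5, 114130366 to 114139321), the uracil DNA glycosylase, went from 21.4, 23.4, 22.2 and 22.9 to 1.24, 1.87, 1.93 and 1.28 CPM and fell by 3.86 (SE 0.12, adjusted p = 6.74e-18, edgeR). Cdc6 (NR_156128, chromosome 11, 98907709 to 98923942), the replication licensing factor with the E2F match shown above, went from 42.1, 44.4, 42.2 and 40.9 to 6.09, 6.05, 5.79 and 7.29 CPM and fell by 2.76 (SE 0.074, adjusted p = 5.60e-19, edgeR). At 1 h Cdc6 was at 28.9, 18.2, 26.6 and 23.5 CPM. E2f2, an activating E2F factor, went from 32.2, 33.4, 32.7 and 32.3 to 6.77, 8.22, 5.42 and 6.56 CPM and fell by 2.27 (SE 0.092), while E2f3 was at 75.7 ± 2.94 and 73.8 ± 5.83 CPM with overlapping groups. Cdk6, a G1 kinase, rose by 1.36 from 184, 152, 149 and 150.4 to 378, 392, 387 and 479 CPM. Differences from the GFP line were negative for 15 of the 40 genes and positive for none, against 9.96% and 7.19% of all genes. The fall was thus larger in the Nur77 line for those 15. With the 1 h libraries in the fit, 7 were called negative. Of the 15, 13 had a higher mean level in the Nur77 line at 0 h and 10 a lower one at 5 h. Both patterns are favoured by choosing genes with a negative difference. Of all 1215 genes with a called negative difference, 727 were higher in the Nur77 line at 0 h and 1029 lower at 5 h. Among 36 G2/M and mitosis genes 34 fell, 2 of them by at least 1, and none rose (median -0.66; with library size alone 36 fell, 16 by at least 1, median -0.98). Foxm1, the transcription factor of the mitotic programme, went from 141, 127, 137 and 134 to 47.7, 51.7, 52.2 and 48.6 CPM and fell by 1.43 (SE 0.062). Ccnf, encoding cyclin F, fell by 1.28 from 62.5 ± 4.37 to 25.9 ± 3.69 CPM and Cdc25b, a mitotic phosphatase, by 0.94 from 74.6 ± 3.54 to 38.9 ± 3.35 CPM. Cenpe, a kinetochore motor, had overlapping groups (229 ± 15.8 and 216 ± 17.6 CPM).

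The ribosome biogenesis list rose. All 26 genes were tested, 24 rose and 1 fell, by modest amounts (median 0.52; with library size alone 17 rose and 2 fell, median 0.21). Rrp9, a component of the U3 particle that processes ribosomal RNA, went from 35, 37.7, 37.3 and 42.7 to 86.4, 83.7, 84.1 and 80.9 CPM (1.13, SE 0.060). Rrp12 rose by 0.97 from 47.1 ± 2.5 to 92.2 ± 3.85 CPM and Utp20 by 0.99 from 119 ± 17 to 236 ± 32.2 CPM. Ubtf, the RNA polymerase I factor UBF, fell by 0.74 from 212, 207, 211 and 209.8 to 129.9, 123, 127 and 124 CPM, and Polr1e, a subunit of that polymerase, did not pass the test (23.2 ± 2.8 and 25.4 ± 1.41 CPM). Differences from the GFP line were positive for 12 and negative for 1 (6 positive and none negative with the 1 h libraries in the fit, and 7 and 1 with library size alone). The shares over all genes were 7.19% positive and 9.96% negative. Of 49 cytosolic ribosomal protein genes 32 rose and none fell, with a median of 0.14, but with library size alone none rose and 39 fell (median -0.17), so their direction rests on the scaling.

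Of 32 lysosome genes 6 rose and 17 fell (median -0.14; with library size alone 3 rose and 27 fell, median -0.45). Tfeb, the master regulator of lysosome genes, went from 26.3, 27, 27.4 and 24.1 to 2.6, 3.46, 2.97 and 2.19 CPM and fell by 3.22 (SE 0.11). Its relative Tfec, a macrophage-restricted factor, rose by 1.27 from 1.13, 0.963, 1.9 and 1.56 to 3.16, 2.95, 3.71 and 4.01 CPM. Atp6v0d2, a proton pump subunit, fell by 1.36 from 2.29 ± 0.334 to 0.891 ± 0.11 CPM. Of 21 amino acid and other solute carriers, listed as expressed, 17 rose and 3 fell (median 0.75). With library size alone 14 rose and 4 fell (median 0.44). Slc15a3, a lysosomal exporter of bacterial peptides, went from 27.4, 30.4, 26.8 and 28.8 to 478, 459, 466 and 440.0 CPM (4.02, SE 0.051). Slc31a2, a copper transporter, rose by 2.94 from 15.5 ± 1.58 to 119 ± 3.13 CPM. Slc7a2, an arginine importer, held 1 count at 0 h and 237 at 5 h, a ratio of 216 with a counting interval from 38.4 to 8573. Slc40a1, the iron exporter ferroportin, fell by 2.38 from 38.4, 39.7, 37.3 and 41.3 to 7.3, 7.78, 6.24 and 9.11 CPM (SE 0.089). Slc6a9, a glycine transporter, did not pass the test (33.9 ± 1.0 and 31.6 ± 1.85 CPM).

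Adhesion, integrin and cytoskeleton genes were all 29 tested, 21 rose and 5 fell (median 0.55). With library size alone 17 rose and 6 fell (median 0.24). Marcksl1 (NM_010807, chromosome 4, 129513581 to 129515981), an actin-binding substrate of protein kinase C, went from 59.1, 60.1, 64.7 and 63.3 to 1669.7, 1634, 1681 and 1617 CPM. Its log2 fold change of 4.74 (SE 0.049) had the smallest adjusted p of all genes (9.62e-26, edgeR). Fscn1, an actin bundler, rose by 2.77 from 0.31 ± 0.0713 to 2.18 ± 0.416 CPM. Itga6, an integrin that binds laminin, fell by 1.34 from 12.4 ± 0.767 to 5.04 ± 0.98 CPM, and Tln1, encoding talin, overlapped (655 ± 105 and 746 ± 90.4 CPM). Of 12 osteoclast markers, relevant because RAW 264.7 cells can become osteoclasts, 9 were tested, 3 rose and 2 fell (with library size alone 2 and 4).

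The deepest falls among called genes of at least 10 CPM at 0 h were in 8 genes, of which Ung is described above. St6gal1 (NM_145933, chromosome 16, 23224729 to 23360350), which adds terminal sialic acid to glycoproteins, went from 18.9, 14.6, 14.9 and 14 to 0.301, 0.36, 0.371 and 0.729 CPM and fell by 5.24 (SE 0.20, adjusted p = 2.27e-16, edgeR). Rab7b (NM_145509, chromosome 1, 131688681 to 131715443), a small GTPase that sends TLR4 to lysosomes, went from 77.5, 78.7, 80.9 and 72.4 to 4.36, 3.1, 3.86 and 4.01 CPM and fell by 4.31 (SE 0.10, adjusted p = 6.20e-20, edgeR). At 1 h Rab7b was at 38.3, 17.4, 40.4 and 38.9 CPM. Dkk2, a secreted Wnt antagonist, went from 14.8, 16, 15 and 16.5 to 0.715, 0.721, 1.19 and 0.729 CPM and fell by 4.24 (SE 0.16). Vsir, the inhibitory checkpoint protein VISTA, went from 139, 139, 135 and 129.6 to 11, 11.7, 10.7 and 9.02 CPM and fell by 3.66 (SE 0.068). S1pr1, a receptor for sphingosine 1-phosphate, went from 78.7, 79.9, 79.9 and 84.9 to 7.22, 5.91, 6.24 and 6.02 CPM and fell by 3.64 (SE 0.074). The rule that picked these genes required groups without overlap, a trait of 64.9% of all genes tested. Angptl2, a secreted angiopoietin-like protein, fell by 3.63 from 57.4 ± 3.94 to 4.66 ± 1.1 CPM, and C130050O18Rik by 3.72 from 25.9 ± 1.4 to 2.01 ± 0.27 CPM. Vsir fell by less in the GFP line (-2.46 on the log2 scale, from 156 ± 7.75 to 28.5 ± 1.82 CPM, difference -1.21, SE 0.089, adjusted p = 2.31e-09, edgeR).

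Set beside the GFP line, where 33.3% of genes rose (8.45% by at least 1) and 34.4% fell (7.75%), the response was of the same general shape, with a Pearson correlation of 0.917 between the log2 fold changes of the lines across 12198 genes, which are not independent replicates. The difference of the responses was called for 2092 genes (17.2%), positive for 877 and negative for 1215, and 109 genes were called in opposite directions. A difference of at least 1 was reached by 68 positive (0.557%) and 161 negative genes (1.32%). With the 1 h libraries in the fit, 336 positive and 625 negative differences were called. A difference of responses can go with unlike levels at either time. Of the 1215 negative ones, 727 had a higher mean level in the Nur77 line at 0 h and 1029 a lower one at 5 h, and of the 877 positive ones, 541 had a lower level at 0 h and 691 a higher one at 5 h. Genes called in only 1 line were left out of the next 2 sets. Of 981 genes called in both lines that rose by at least 1 on their mean, 14.7% had a positive and 21.1% a negative difference. Of 992 called in both lines that fell by at least 1 on their mean, 3.93% had a positive and 22.0% a negative one. Their median log2 fold changes were -1.54 in the Nur77 line and -1.35 in the GFP line.

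Marcks (NM_008538, chromosome 10, 37133243 to 37138926), the actin-binding relative of Marcksl1, had the most negative difference among called genes that reached 10 CPM in a group. In the Nur77 line it went from 3.47, 3.99, 4.16 and 4.54 to 21.7, 17.2, 18.6 and 22.2 CPM and rose by 2.30 (SE 0.11). In the GFP line it rose by 7.92, from 0.182 ± 0.0779 to 45.2 ± 1.35 CPM (difference -5.62, SE 0.25, adjusted p = 9.95e-13, edgeR). Hip1r, an actin and clathrin adaptor, rose by 1.28 from 4.53 ± 0.424 to 10.9 ± 1.13 CPM against 3.45 from a mean of 0.97 to 10.9 ± 0.979 CPM (difference -2.17, adjusted p = 1.23e-07, edgeR), and Ppfia3, a scaffold of the liprin family, by 0.81 from 2.68 ± 0.337 to 4.64 ± 0.807 CPM against 3.09 from 2.71 ± 0.319 to 22.9 ± 0.953 CPM (difference -2.29, adjusted p = 1.14e-08, edgeR). On the other side, Akap12 (NM_031185, chromosome 10, 4266329 to 4359471), a scaffold of protein kinases A and C, went from 1.61, 2.06, 1.55 and 1.43 to 17.5, 18.3, 20.3 and 18 CPM in the Nur77 line and rose by 3.48 (SE 0.16). In the GFP line it was at 0.512 ± 0.26 and 0.451 ± 0.162 CPM, with a log2 fold change of -0.04 (difference 3.51, SE 0.40, adjusted p = 1.69e-06, edgeR). Sele, an adhesion molecule of activated endothelium, held 2 counts at 0 h and 1462 at 5 h in the Nur77 line, a ratio of 667 with a counting interval from 184 to 5510. Sele in the GFP line was at 0.429 ± 0.269 CPM at 0 h and 34.7 ± 3.91 CPM at 5 h. Its difference (2.79, adjusted p = 0.0313, edgeR) was lost in 5 of the 16 fits that left out 1 library. Scg2, a secretory granule protein, was at 0.0823 ± 0.0588 and 0.773 ± 0.342 CPM in the Nur77 line and 15.1 ± 1.4 and 18 ± 2.57 CPM in the GFP line (difference 2.71, adjusted p = 0.00218, edgeR). Kcnq1ot1, an antisense RNA within Kcnq1, rose by 2.23 from 9.83, 5.64, 4.16 and 6.1 to 51.2, 20.8, 16.4 and 26 CPM, with replicate 1 the highest at both times, and was at 15 ± 11.2 CPM at 0 h and 8.0 ± 1.6 CPM at 5 h in the GFP line (difference 3.17, SE 0.72, adjusted p = 0.00912, edgeR). How strand was treated in counting is not given in the sources used here, so its reads cannot be told apart from those of its partner.

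**Figure D4:**
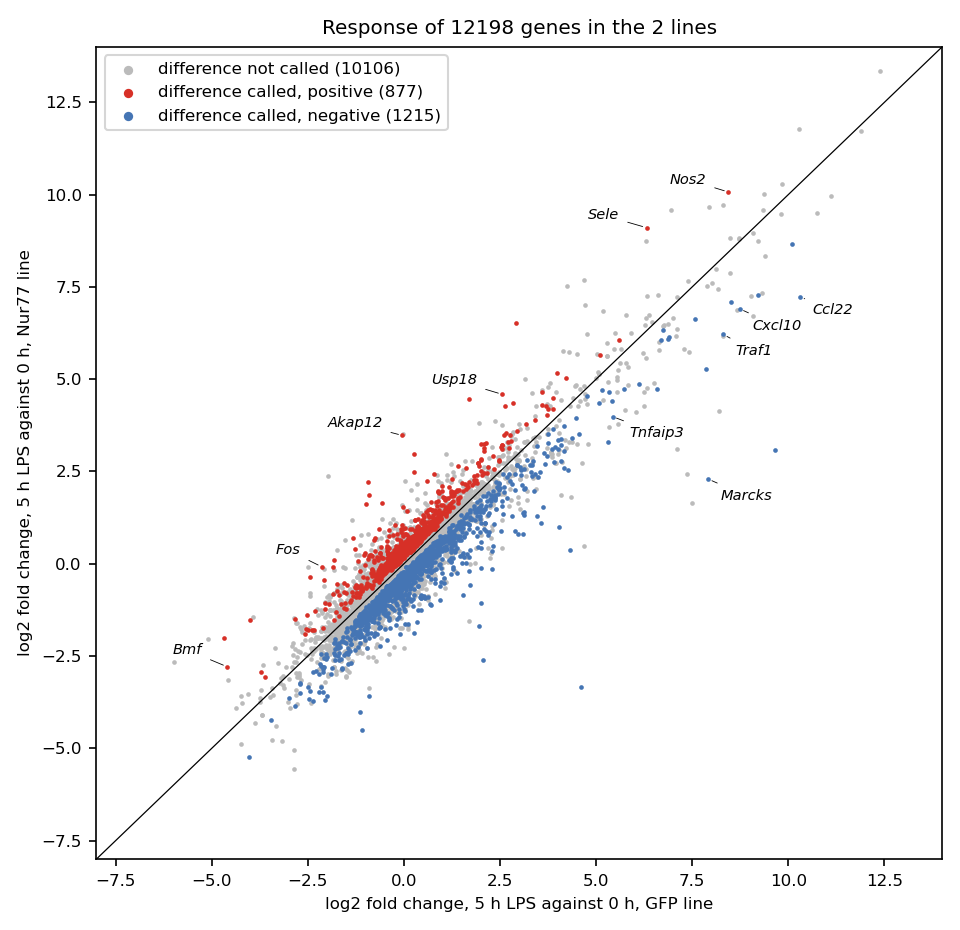
Log2 fold change at 5 h against 0 h in the Nur77 line (vertical) and in the GFP line (horizontal) for 12198 genes, with 877 genes of a positive and 1215 of a negative called difference in colour and the line of equal response. Most genes follow the line, and Marcks lies farthest below it among the named genes and Akap12 farthest above.

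The promoters shown above were read together with all others in the RefSeq table (GRCm38.p6), as windows of 300 bases, 250 before and 50 after the start. Of the tested genes 9705 were matched, and 7775 with a single window are counted here. An ISRE match was in 7.61% of all tested windows, 15.3% of those of genes that rose by at least 1, 25.8% of those that rose by at least 3 and 7% of those that fell by at least 1. An AP-1 match was in 4.75%, 8.65%, 17.4% and 5.06% of these windows, and an NF-kB match in 3.94%, 5.55%, 10.6% and 3.76%. A TATA box was in 6.88%, 12.1%, 20.5% and 7.78%. The shares of these 4 motifs went up with the size of the rise, while genes that fell were near the background. E2F (9.53%, 6.2%, 3.79% and 11%) and the CCAAT box (CCAAT; 40.2%, 34.4%, 34.8% and 45.4%) had lower shares among risen genes and higher shares among fallen genes than in all tested windows. For the Nur77 response element NBRE (AAAGGTCA) the shares were 0.887%, 1.31%, 0.758% and 1.3%, and for the cyclic AMP element CRE (TGACGTCA) 3.45%, 2.77%, 0.758% and 2.2%. Of all 22862 single-window promoters in the table, 8.62% held ISRE, 7.98% AP-1, 3.94% NF-kB, 14.8% TATA, 5.3% E2F, 1.49% NBRE, 1.85% CRE and 38.2% CCAAT matches. Within the lists, 14 of 23 antiviral genes (60.9%) held an ISRE match and 10 of 26 G1/S genes (38.5%) an E2F match. The antiviral and G1/S lists are textbook sets partly defined by such elements, so these shares describe the lists and are not independent of their choice. No test was made of these shares, and a match says nothing about whether a factor was bound.

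**Figure D5:**
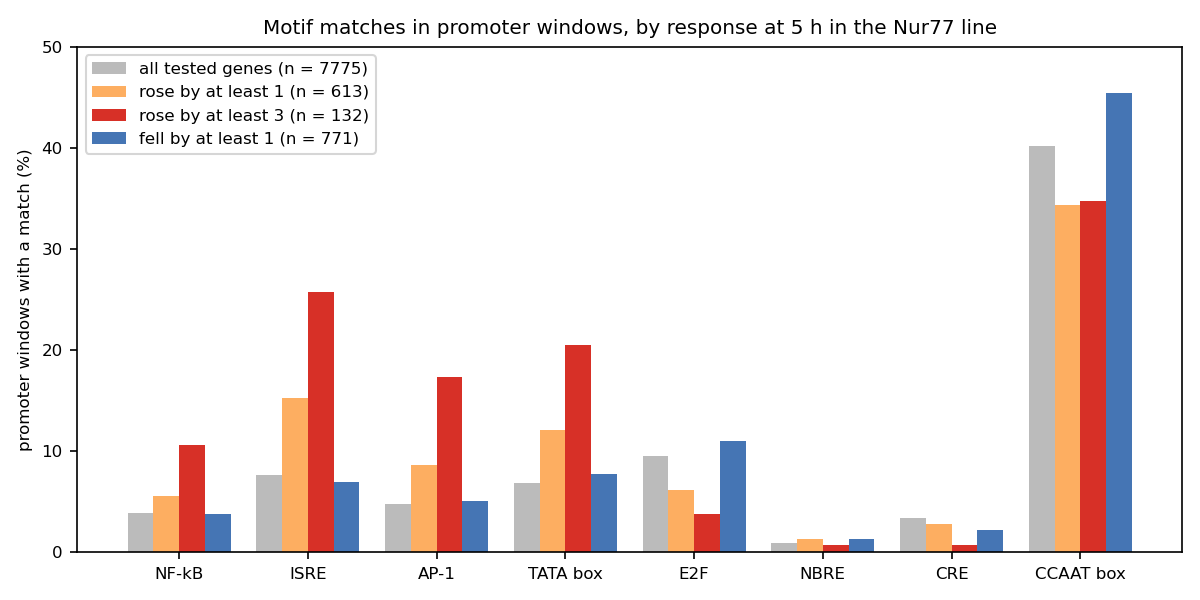
Share of promoter windows with each motif among all tested genes (7775 windows), genes that rose by at least 1 (613) or at least 3 (132) and genes that fell by at least 1 (771), on the log2 scale. ISRE, AP-1, NF-kB and TATA matches are most frequent in the set that rose by at least 3 (25.8%, 17.4%, 10.6% and 20.5%).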

How the data were processed

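RNA was measured in 24 libraries of the RAW 264.7 Nur77 and GFP lines, made with the KAPA mRNA HyperPrep protocol, per the labels. The authors deposited estimated counts per RefSeq transcript, not normalized, and all values were multiples of 0.5. CASAVA 1.8.2, HISAT2 2.1.0 and mm10 are named per the submitters' processing notes. Neither a counting program nor its treatment of strand nor an annotation release is given in the sources used here.

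Of 42361 transcripts, 42203 were matched to gene symbols through RefSeq GRCm38.p6 and 65 through GENCODE. The other 93 held 0.496% of counts and kept their identifiers. Coordinates printed beside a transcript name are those of the whole gene in RefSeq. Counts of a gene's isoforms were close to copies of each other (median ratio 0.992 over 5011 genes), so 1 transcript, that of the highest mean, stood for each of 25160 genes. Counts were rounded to whole numbers and filtered with filterByExpr, which left 12198 genes, and libraries were scaled with TMM (trimmed mean of M-values), with factors from 0.896 to 1.14. The choice of transcript, the filter and the TMM factors used all 24 libraries, the 1 h ones included. Il10 and Ifnb1 were below the filter. Depth in the 8 libraries was 11137343.5 to 29275847 counts.

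One model of 4 group means was fitted to the 16 libraries at 0 h and 5 h of both lines with edgeR 4.0.16 (glmQLFit, robust, and glmQLFTest, in R 4.3.3; 12 residual degrees of freedom). P-values were adjusted over all genes after Benjamini and Hochberg, with calls under 0.05. Each standard error is the size of the log2 fold change over the root of F. The difference of the lines is the contrast of their responses. Floors are 3 counts over a group, and intervals of count ratios cover counting error only. The fitting steps were tested on simulated data.

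Named genes are a fixed panel, the 8 largest rises and 8 largest falls of at least 10 CPM in the higher group without overlap, and the 5 largest positive and 5 largest negative differences. From each described list came the 3 called members with the largest change, the called member farthest against the majority and the uncalled member with the highest level, each of at least 1 CPM. Ifit1 was added for its promoter. Some genes that the rule picks are not reported here. The genes, lists and rules were chosen with earlier results of these data known. Alternatives were DESeq2 1.42.0 (Wald test, and its size factors within edgeR), other filters, all 24 libraries or only the groups compared in the fit, a replicate block, the mean over transcripts and the omission of each library. Library size alone as the scaling was added after seeing the data.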

Additional observations from a re-analysis of the deposited data

Results flagged for a closer look

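Each value below belongs to a single library of the Nur77 line whose distance to the other 3 was large against the range of its group (above Dixon's 95% critical value). Of 296 groups of 4 examined, 26 met this, and chance alone gives about 1 in 20. Before LPS, replicate 1 was the highest of its group for Atf6 (373 CPM, the others 329 to 336 CPM), Cdk6 (184 CPM, the others 149 to 152 CPM), Utp20 (145 CPM, the others 109.9 to 112 CPM) and Tln1 (810.4 CPM, the others 590.1 to 618 CPM). Before LPS, replicate 2 was the highest of its group for Socs3 (9.63 CPM, the others 8.54 to 8.56 CPM). Before LPS, replicate 3 was the highest of its group for Serpinb2 (0.0595 CPM, the others 0 CPM), Sele (0.119 CPM, the others 0 CPM), Batf (0.178 CPM, the others 0.0649 to 0.0806 CPM), Psmb9 (17 CPM, the others 13.7 to 14.2 CPM) and Slc7a2 (0.0595 CPM, the others 0 CPM). Before LPS, replicate 4 was the highest of its group for Il1b (0.454 CPM, the others 0 to 0.0688 CPM), Il6 (0.13 CPM, the others 0 CPM), Fos (4.93 CPM, the others 4.4 to 4.47 CPM) and Gbp4 (0.0649 CPM, the others 0 CPM). At 0 h, replicate 2 was the lowest of its group for Idh1 (112 CPM, the others 118 to 119 CPM). After 5 h of LPS, replicate 1 was the highest of its group for Pdia3 (1145 CPM, the others 1060.0 to 1074 CPM). After 5 h of LPS, replicate 2 was the highest of its group for Dusp14 (1.44 CPM, the others 0.743 to 0.828 CPM). After 5 h of LPS, replicate 3 was the highest of its group for Dkk2 (1.19 CPM, the others 0.715 to 0.729 CPM) and Cish (31.7 CPM, the others 28 to 28.5 CPM). After 5 h of LPS, replicate 4 was the highest of its group for St6gal1 (0.729 CPM, the others 0.301 to 0.371 CPM) and Cdk6 (479 CPM, the others 378 to 392 CPM). At 5 h, replicate 1 was the lowest of its group for Isg15 (80.2 CPM, the others 92.4 to 94.4 CPM) and Slc6a9 (28.8 CPM, the others 32.5 CPM). At 5 h, replicate 2 was the lowest of its group for Serpinb2 (16.9 CPM, the others 21.5 to 22.1 CPM) and Cd86 (2.09 CPM, the others 3.28 to 3.46 CPM). At 5 h, replicate 4 was the lowest of its group for Eno2 (60.3 CPM, the others 71.4 to 72.4 CPM). For Il6, Serpinb2, Sele, Gbp4 and Slc7a2 at 0 h these values are 1 or 2 counts in 1 library. Depth and preparation were not tested as a source of these single values.

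For 72 of the named genes the response to 5 h of LPS differed between the lines (edgeR contrast of the differences, adjusted p under 0.05), 22 of them positive and 50 negative. Values are log2 fold changes of the Nur77 line minus those of the GFP line. In the TLR4, NF-kB and AP-1 lists, the difference was positive for Fos (2.05) and Jun (0.36). It was negative for Ikbke (-1.14), Irak3 (-0.40), Map3k8 (-0.51), Tlr4 (-0.28), Traf1 (-2.10), Tnfaip3 (-1.44), Cyld (-0.35) and Maff (-0.71). In the immediate early genes and brakes, the difference was positive for Nr4a1 (0.64) and Ier3 (0.31). Negative values were those of Klf10 (-1.09) and Socs3 (-0.42). In cytokines, chemokines and their receptors, the difference was negative for Tnf (-0.94), Cxcl10 (-1.83), Ccl2 (-0.40), Ccl22 (-3.09), Cd40 (-0.76) and Csf3r (-1.07). In the interferon factors, antiviral genes and guanylate-binding proteins, the difference was positive for Usp18 (2.03), Irf7 (0.81) and Irf9 (0.42). Negative values were those of Gbp2 (-2.58), Jak2 (-0.64), Ifnar1 (-0.65) and Gbp5 (-1.92). In the effector, inflammasome and class I lists, the difference was positive for Nos2 (1.63, with a lower level in the Nur77 line at both times), Ripk1 (0.26) and Icosl (0.55). The negative ones were Ptgs2 (-1.42), Pla2g4a (-0.69), Nlrp3 (-0.44), Casp4 (-0.35), Cd274 (-0.89) and Psmb9 (-0.86). In macrophage identity and metabolism, the difference was positive for Hk2 (0.73). It was negative for Fcgr3 (-0.34), Pfkm (-0.42), Idh1 (-0.39), Cpt1a (-0.83), Abcg1 (-0.42), Fabp4 (-0.51) and Npc2 (-0.19). In the stress, apoptosis and cell cycle lists, the difference was positive for Ppp1r15a (0.61), Sesn2 (0.55), Bmf (1.81) and Cenpe (0.26). Negative values were those of Ung (-1.03), Bcl2a1d (-0.22), Cdc6 (-0.59), E2f2 (-0.83) and Foxm1 (-0.26). In ribosome biogenesis, lysosomes, carriers and adhesion, the difference was positive for Akap12 (3.51), Rrp9 (0.29), Rrp12 (0.58) and Slc15a3 (0.31). The negative ones were Marcks (-5.62), Ubtf (-0.17), Tfeb (-0.53), Slc6a9 (-0.56) and Marcksl1 (-0.99). Outside the lists, positive differences were those of Kcnq1ot1 (3.17), Sele (2.79) and Scg2 (2.71). Outside the lists, negative differences were those of St6gal1 (-1.20), Dkk2 (-0.77), C130050O18Rik (-1.34), Vsir (-1.21), S1pr1 (-0.65), Ppfia3 (-2.29) and Hip1r (-2.17).

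Of these 72 differences, 17 were lost in at least 1 of the 16 edgeR fits that left out a single library. Nr4a1 did not pass without GFP line 0 h replicates 1, 3 and 4, GFP line 5 h replicates 3 and 4, Nur77 line 0 h replicates 1, 3 and 4 and Nur77 line 5 h replicates 2, 3 and 4, each left out alone (adjusted p 0.052 to 0.0825). Nos2 lost its call without GFP line 0 h replicates 2 and 4, GFP line 5 h replicate 3 and Nur77 line 0 h replicates 1, 2 and 3, each left out alone (adjusted p 0.0505 to 0.114). Ccl2 did not pass without GFP line 5 h replicates 2 and 3, Nur77 line 0 h replicates 2 and 3 and Nur77 line 5 h replicates 2 and 3, each left out alone (adjusted p 0.0504 to 0.101). St6gal1 lost its call without Nur77 line 5 h replicate 1 (adjusted p = 0.0596). Dkk2 did not pass without Nur77 line 5 h replicates 1 and 2, each left out alone (adjusted p 0.0557 to 0.106). Sele lost its call without GFP line 0 h replicates 2 and 3 and Nur77 line 0 h replicates 1, 2 and 4, each left out alone (adjusted p 0.0561 to 0.0907). Map3k8 did not pass without GFP line 0 h replicates 1 and 2, GFP line 5 h replicate 2, Nur77 line 0 h replicates 1 and 4 and Nur77 line 5 h replicate 4, each left out alone (adjusted p 0.0525 to 0.108). Tlr4 lost its call without GFP line 0 h replicate 1, GFP line 5 h replicates 1, 2, 3 and 4, Nur77 line 0 h replicates 1, 2 and 4 and Nur77 line 5 h replicates 2 and 3, each left out alone (adjusted p 0.0519 to 0.081). Gbp5 did not pass without GFP line 0 h replicates 1, 2 and 4, GFP line 5 h replicates 1, 2, 3 and 4, Nur77 line 0 h replicates 1 and 4 and Nur77 line 5 h replicates 1, 2 and 3, each left out alone (adjusted p 0.0528 to 0.496). Icosl lost its call without Nur77 line 0 h replicates 3 and 4, each left out alone (adjusted p 0.058 to 0.173). Fabp4 did not pass without GFP line 0 h replicates 1 and 3, GFP line 5 h replicates 1, 2 and 3, Nur77 line 0 h replicates 1, 2 and 3 and Nur77 line 5 h replicates 2, 3 and 4, each left out alone (adjusted p 0.0544 to 0.132). Npc2 lost its call without GFP line 0 h replicates 1, 2 and 3, GFP line 5 h replicates 1, 2 and 3, Nur77 line 0 h replicates 1, 2, 3 and 4 and Nur77 line 5 h replicates 1, 2 and 4, each left out alone (adjusted p 0.0559 to 0.0939). Bcl2a1d did not pass without Nur77 line 0 h replicate 2 (adjusted p = 0.0608). Foxm1 lost its call without GFP line 0 h replicates 2 and 4, GFP line 5 h replicates 2 and 4, Nur77 line 0 h replicates 1, 3 and 4 and Nur77 line 5 h replicates 1 and 4, each left out alone (adjusted p 0.0619 to 0.0998). Cenpe did not pass without GFP line 0 h replicates 1 and 3, GFP line 5 h replicates 3 and 4, Nur77 line 0 h replicates 2, 3 and 4 and Nur77 line 5 h replicate 4, each left out alone (adjusted p 0.0537 to 0.0876). Ubtf lost its call without GFP line 0 h replicates 1, 2 and 3, GFP line 5 h replicates 1, 2 and 4, Nur77 line 0 h replicates 1, 2, 3 and 4 and Nur77 line 5 h replicates 2, 3 and 4, each left out alone (adjusted p 0.0519 to 0.0839). Tfeb did not pass without GFP line 0 h replicate 1, GFP line 5 h replicates 1 and 2, Nur77 line 0 h replicates 2 and 3 and Nur77 line 5 h replicates 1 and 4, each left out alone (adjusted p 0.0553 to 0.119). DESeq2 did not call Nr4a1, Nos2, Fabp4 and Foxm1 (adjusted p 0.0503 to 0.0575). With all 24 libraries in the fit 35 of the 72 lost their call (adjusted p 0.0501 to 0.778). Besides those named, these were Ptgs2, Cxcl10, Jun, S1pr1, Irak3, Cyld, Ier3, Irf7, Irf9, Jak2, Casp4, Ripk1, Fcgr3, Pfkm, Idh1, Abcg1, Rrp9 and Slc15a3. Construct, line and culture cannot be told apart in these differences.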

How the results depend on the processing

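With every alternative but library size alone, the 4252 risen and 4404 fallen genes of the Nur77 line stayed within 1.5 times of these counts. Leaving out 1 library gave 4098 to 4153 risen and 4208 to 4287 fallen genes, 994 to 1025 and 1201 to 1249 by at least 1. In the GFP line the omissions gave 3910 to 4177 risen and 3985 to 4208 fallen genes, and for the difference of the responses 711 to 937 positive and 1018 to 1270 negative. With a replicate block 4258 rose and 4378 fell. Same-numbered libraries of the 2 times did not deviate together (correlations -0.151, 0.0083, 0.0638 and -0.0155), so the numbers were not taken as pairs. The difference counts fell to 336 positive and 625 negative with all 24 libraries in the fit, which include the 1 h replicate that stood apart. The cause was not tested. With library size alone, added after seeing the data, 2250 genes rose and 7066 fell (2099 by at least 1), and in the GFP line 2423 and 6641. The same scaling turned 8 named genes that had not passed the test into called falls: Otud7b (-0.25), Atf6 (-0.30), Socs4 (-0.24), Pla2g4a (-0.29), Ctsb (-0.28), Npc2 (-0.27), Hyou1 (-0.19) and Polr1e (-0.19). It also gave calls to 14 further named genes that had none, among them Fos (-0.40, adjusted p = 0.024) and Nr4a2 (-0.63, adjusted p = 0.00735). TMM assumes that most genes keep their level, library size alone that total RNA does, and which held here was not tested. Over 147 named genes and 17 alternatives each, 2463 of 2499 values kept their side of the threshold and, where called, their direction. Changes were seen for 24 genes in at least 1 alternative. A change of sign in a gene called in neither fit was not counted. Hyou1 passed in 5 further fits (adjusted p 0.0109 to 0.0486), and Pdia3, Cs and Cenpe passed without 1 library each (0.032, 0.0497 and 0.039). Of the 72 named differences between the lines, the replicate block left 66 called; Nr4a1, Nos2, Gbp5, Fabp4, Npc2 and Foxm1 did not pass (adjusted p 0.0516 to 0.0795). DESeq2 left 68, its size factors within edgeR 68, no filter on low counts 66, library size alone 68, and the filter of 1 CPM and the mean over transcripts 72. Depth limits Il10, Il12b and Ifnb1, with 0 to 17 counts per library.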
